A study of Caenorhabditis elegans with 15 samples.

Results

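The vitellogenin genes vit-1 to vit-6 of Caenorhabditis elegans encode the yolk proteins, large lipid-binding proteins related to apolipoprotein B. They are described here across wild-type animals and 2 strains that overexpress the enzyme ACP7 or an inactive form of it from an intestinal promoter. The members are the genes with these symbols, matched to the locus tags of the count table through the RefSeq gene table. All 6 of them were found among 46929 genes, and they were chosen with earlier results of these data known. Wild type was the laboratory strain N2. ACP7 OE (strain ABR275) carried F21A3.11, the gene called ACP7 in the labels, between the ges-1 promoter, which is active in the intestine, and the unc-54 3′ untranslated region, with the reporter WormScarlet behind an SL2 trans-splice site. ACP7-7A OE (strain ABR484) carried the same construct with a catalytically dead form, ACP7-7A. Each group had 5 libraries of poly(A) RNA from about 1000 whole worms each. For the animals' age, stage and sex, the sources used here give nothing. Each construct is represented by 1 strain, so an effect of the transgene and any other difference of that strain cannot be told apart.

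Vitellogenins are made in the intestine of adult hermaphrodites, secreted into the body cavity and taken up by growing oocytes through the receptor RME-2, where they provision the embryo. vit-1 to vit-5 encode the heavy yolk polypeptides, and vit-6 encodes a precursor that is cut into a pair of smaller ones. Transcription of the genes begins at the passage to adulthood and depends on intestinal GATA factors such as ELT-2 and on the homeodomain proteins UNC-62 and CEH-60. MAB-3 represses them in males. The promoter that drives the transgenes is active in the same tissue.

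Library totals ran from 39050495 to 58077047 counts. Levels are CPM, counts scaled to a common library size by the TMM method. F21A3.11 stood at 15.03 ± 1.52 CPM in N2, and ACP7 OE had 610 ± 29.8 CPM of it against 1364 ± 229 CPM for ACP7-7A OE (SD, n = 5 each), and WormScarlet had 0 counts in every wild-type library, as the labels have it. All 14 genes of an intestinal marker list were tested, and none was at 0 in any group. ACP7-7A OE replicates 1 and 2 stood apart from replicates 3 to 5. The summed level of 31 sperm genes was 90.5 and 87.6 CPM in those 2 libraries, against 338 to 343 CPM in the other 3, and the summed level of 6 adult cuticle collagen genes was 506 and 538 CPM against 1121 to 1201 CPM. Wild-type replicate 5 also deviated from its group in the same direction by these sums. Its sums were 154 CPM for the sperm genes and 817 CPM for the cuticle genes. The other wild-type libraries had 196 to 226 CPM and 1206 to 1348 CPM, and some fits were also run without replicate 5. By the median of the 6 cuticle genes, replicate 5 (0.51 log2 CPM) lay within the range of the other wild-type libraries (0.31 to 1.03). Yolk gene and pathway values are given with and without ACP7-7A OE replicates 1 and 2 where that changed a call. Leaving out these alone was chosen after seeing the data. Nothing in the labels says that replicates came from separate cultures, so p-values measure the spread between these libraries, which may be technical.

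The yolk genes were among the most abundant transcripts in all groups. The 6 genes together took 8.58% ± 0.32 of all counts in N2. The mean was 9.01% ± 0.55 with active ACP7 and 8.56% ± 0.47 with the inactive form (SD over 5 libraries). The single libraries lay between 8.11% and 8.89% in wild type, between 8.31% and 9.60% in ACP7 OE and between 8.06% and 9.11% in ACP7-7A OE, so the groups overlapped. By raw counts each of the 6 genes was within the first 8 of all genes in every library. In the mean over libraries the other two genes among those 8 were the ribosomal RNA gene rrn-3.1 and the elongation factor gene eef-1A.1. The lowest count of any member was 217583, for vit-3 in wild-type replicate 4, at which counting error is about 0.214% (1 SD) and under the spread between libraries.

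5 of the genes lie on the X chromosome and vit-6 on chromosome IV (build WBcel235, coordinates as in the count table). vit-5 lies at X:3403471-3408603 on the plus strand, and vit-4 and vit-3 at X:3558769-3563965 and X:3567355-3572549 on the minus strand. vit-4 and vit-3 are separated by 3389 bases, with no annotated gene wholly between them. vit-2 lies at X:5101042-5106169 and vit-1 at X:7727889-7733168, both on the plus strand. vit-6 lies at IV:8261157-8266459 on the plus strand and is annotated with 2 transcripts, the others with 1. vit-3, vit-4 and vit-5 have 6 exons each and vit-1, vit-2 and vit-6 have 5, and the counted exon length of the 6 genes ran from 4870 to 5088 bases. Genes that overlap members by position had few counts of their own. C42D8.9, which overlaps vit-2, had 66 counts over all 15 libraries, and the non-coding T27A10.8 and F59D8.3, which overlap vit-3 and vit-4, had 0. The strand setting is not given in the sources at hand, so these counts cannot tell how many reads such genes added to the members. vit-3, vit-4 and vit-5 are close paralogs, as are vit-1 and vit-2. How reads that align to more than 1 place were counted is not stated in the sources at hand, so the division of counts among these paralogs is uncertain.

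Per length the genes fell into a high and a low set. Over all 15 libraries vit-2 had 5104 ± 337 CPM per kilobase of exon, vit-6 4927 ± 316, vit-5 3603 ± 290, vit-1 1367 ± 59.2, vit-4 1300 ± 93.1 and vit-3 1261 ± 135 (SD, n = 15). The step from vit-5 to vit-1, a ratio of 2.64 between their means, was present in every library. vit-6 was also above vit-5 in all 15 libraries. vit-2 was above vit-6 in 14 of 15 libraries, but their means differed by less than 1 SD. vit-1 exceeded vit-4 in 13 libraries and vit-4 exceeded vit-3 in 10, the means of vit-4 and vit-3 again within 1 SD of each other. The means of vit-1 and vit-4 differed by more than the SD of vit-1 and less than that of vit-4. Ranked among all genes by level per length, vit-2 was between places 1 and 3 in every library and vit-6 between 2 and 4, while vit-5 lay between 4 and 11 and vit-3 between 87 and 129.

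**Figure D1:**
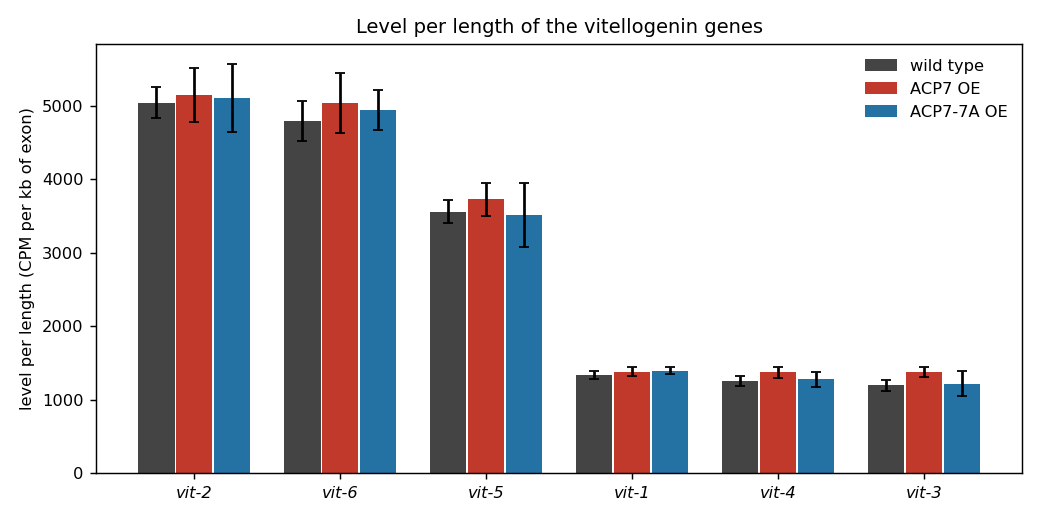
Mean level per length (CPM per kilobase of exon, linear axis from 0) of each vitellogenin gene in wild type (grey), ACP7 OE (red) and ACP7-7A OE (blue), with error bars of 1 SD over 5 libraries. In every group the bars of vit-2, vit-6 and vit-5 are more than 2 times as high as those of vit-1, vit-4 and vit-3, and within a gene the error bars of the groups lie close together.

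The first comparison asks how overexpression of active ACP7 alters yolk gene RNA relative to N2. All 6 fitted differences were small and positive, and none passed the test. The log2 fold changes of ACP7 OE against wild type ran from 0.03 for vit-2 to 0.21 for vit-3, with a median of 0.07, beside a median of -0.0040 over all 15725 genes tested. In edgeR's quasi-likelihood test 0 of the 6 members passed a Benjamini-Hochberg adjusted p of 0.05, where 2.68% of all tested genes did (1.48% higher and 1.2% lower). DESeq2 called 0 of them, where it called 4.6% of all genes. At an unadjusted p under 0.05 there were 2, vit-3 and vit-4, where 16.5% of all tested genes reached that level.

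The major yolk genes vit-2 and vit-6 overlapped widely between the groups. vit-2 had 25409, 26064, 25044, 23252 and 24770 CPM in wild-type replicates 1 to 5, and 26765, 23025, 23930, 26701 and 26755 CPM in ACP7 OE replicates 1 to 5. ACP7 OE thus held both the highest and the lowest of these 10 values. The log2 fold change was 0.03 (SE 0.06, 95% interval -0.09 to 0.15, edgeR adjusted p = 0.85). vit-6 had 25175, 24983, 25702, 22841 and 22730 CPM in N2, whereas ACP7 OE had 26608, 22682, 24069, 27249 and 27062 CPM. Again the lowest and the highest value were both in ACP7 OE. Its log2 fold change was 0.07 (SE 0.06, 95% interval -0.04 to 0.19, edgeR adjusted p = 0.57).

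vit-3, of the low set, was the member with the largest difference. It had 6289, 5988, 5553, 5477 and 6030 CPM in N2, whereas ACP7 OE had 7021, 6353, 6469, 7003 and 6981 CPM. Every ACP7 OE library was above every wild-type library, which held in the higher direction for 4.39% of all tested genes. The log2 fold change was 0.21 (SE 0.07, 95% interval 0.06 to 0.36), and the difference did not pass the test across all genes (edgeR adjusted p = 0.14). This call differed between fits with other libraries, in which the filter and the scaling were also made anew. With only wild type and ACP7 OE in the fit the log2 fold change was again 0.21 and the adjusted p = 0.014, where 4.42% of the tested genes passed in the higher direction. Without ACP7-7A OE replicate 2, which is in neither group compared, the adjusted p = 0.049, where 2.32% passed in the higher direction. Without ACP7-7A OE replicates 1 and 2 it was 0.0051, where 4.52% did. Over all alternatives the adjusted p of vit-3 ranged from 0.0017 to 0.29 and its log2 fold change from 0.17 to 0.24.

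vit-4, the neighbour of vit-3, followed it at a smaller size. Wild type had 6546, 6359, 6052, 5684 and 6256 CPM and ACP7 OE 7127, 6238, 6494, 6997 and 6973 CPM. Replicates 2 and 3 of ACP7 OE lay within the range of wild type and the other 3 above it. The log2 fold change was 0.13 (SE 0.06, 95% interval 0.01 to 0.25, edgeR adjusted p = 0.23). vit-5 and vit-1 had log2 fold changes of 0.07 (SE 0.07, 95% interval -0.07 to 0.20) and 0.06 (SE 0.05, 95% interval -0.04 to 0.15), with edgeR adjusted p = 0.66 and adjusted p = 0.59. ACP7 OE replicates 2 and 3 were the lowest of their group for each of the 6 genes. In bulk RNA of whole worms, fewer cells of a type and less RNA per cell cannot be told apart.

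The summed level of the 31 sperm genes, 30 of them tested, did not overlap between these groups and was 154 to 226 CPM in N2 but 312 to 467 CPM in ACP7 OE, with no member at 0 in either group. The sums of the 14 intestinal genes overlapped, at 3875 to 5249 CPM in N2 (median 5043) and 5004 to 6004 CPM in ACP7 OE (median 5148). Of the intestinal genes 0 of 14 passed the test, and of the sperm genes 1 of 30 passed, nspd-9, which was higher. Over all tested genes 2.68% passed, and 1.48% passed in the higher direction. The part of the sperm gene difference in the vit-3 values was not tested.

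**Figure D2:**
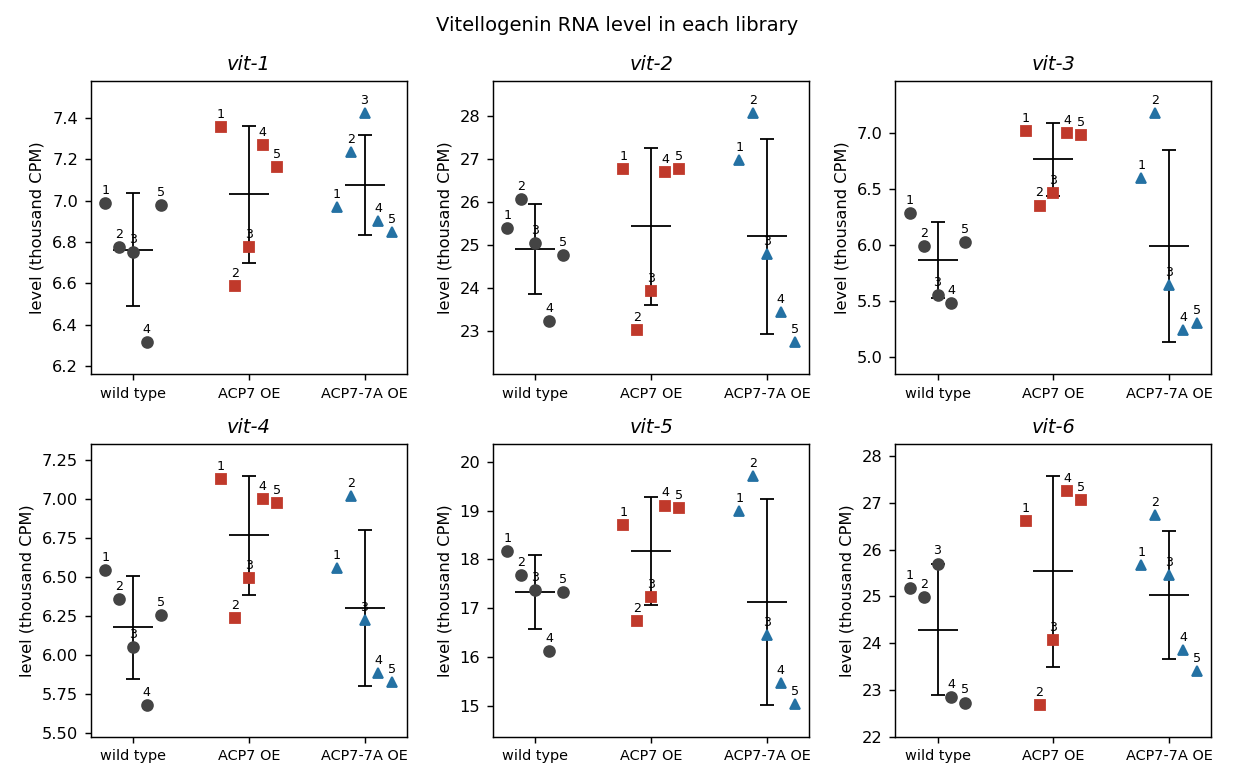
TMM-scaled level (in units of 1000 CPM, linear axes that do not start at 0) of each vitellogenin gene in the 5 libraries of wild type (grey circles), ACP7 OE (red squares) and ACP7-7A OE (blue triangles). Small digits give the replicate, and black bars the mean and 1 SD. All ACP7 OE points lie above all wild-type points in the panel of vit-3, and ACP7-7A OE replicates 1 and 2 lie above replicates 3 to 5 in the panels of vit-2 to vit-6.

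Against wild type, the animals with the inactive ACP7-7A had yolk gene levels that centred on those of N2. The log2 fold changes ran from -0.02 for vit-5 to 0.07 for vit-1, with a median of 0.03 beside a median of 0 over all tested genes. Of the 6 members 0 passed the test, and 0 were under an unadjusted p of 0.05, where 6.86% (2.66% higher and 4.2% lower) and 24% of all tested genes were (edgeR quasi-likelihood test, Benjamini-Hochberg adjustment). DESeq2 called 0 of the members and 10.7% of all genes. The groups overlapped for each of the 6, whereas 5.04% of all tested genes did not overlap. The widest 95% interval was that of vit-3, from -0.12 to 0.18, and the narrowest that of vit-1, from -0.03 to 0.16.

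The spread within ACP7-7A OE exceeded that of the other groups for several genes. vit-3 had 6598 and 7180 CPM in replicates 1 and 2 and 5639, 5239 and 5298 CPM in replicates 3, 4 and 5. vit-5 had 18998 and 19713 CPM in replicates 1 and 2 and 16456, 15462 and 15041 CPM in the other 3. For both genes replicates 1 and 2 lay above the highest wild-type library and replicates 4 and 5 below the lowest one, which was 5477 CPM for vit-3 and 16119 CPM for vit-5. The coefficient of variation in ACP7-7A OE was 14.3% for vit-3 and 12.3% for vit-5, against 5.84% and 4.37% in wild type. vit-1 did not share this split. It had 6971 and 7234 CPM in replicates 1 and 2 and 7425, 6902 and 6849 CPM in replicates 3, 4 and 5, a coefficient of variation of 3.46%.

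Without ACP7-7A OE replicates 1 and 2, the log2 fold changes against wild type were 0.06 for vit-1, -0.08 for vit-2, -0.12 for vit-3, -0.05 for vit-4, -0.15 for vit-5 and -0.0058 for vit-6, and 0 of the 6 passed. vit-2, vit-3, vit-4 and vit-6 thus had the opposite sign to that in all libraries. vit-5 came nearest to the threshold (SE 0.05, edgeR adjusted p = 0.084), and with wild-type replicate 5 left out as well it passed at -0.15 (adjusted p = 0.0496), where 6.54% of the tested genes passed in the lower direction. Replicates 1 and 2 held the highest levels of vit-2 to vit-6 in their group, so leaving them out itself lowers these fold changes. The p-values of both fits are therefore a description and no independent support. The replicates that stood apart also differed in other tissues. The 15 oocyte and eggshell genes summed to 18202 and 19247 CPM in replicates 1 and 2 and to 15262 to 16057 CPM in replicates 3 to 5, with none at 0. By the median, the oocyte and eggshell genes had 9.85 and 9.98 log2 CPM against 9.73 to 9.80. The 14 intestinal genes had medians of 6.36 log2 CPM in both replicates 1 and 2 and of 6.83 to 6.92 in the others. Their sums lay closer together, at 3765 and 4069 CPM against 4102 to 4368 CPM. The part of these differences in the yolk gene values was not tested.

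The comparison between the constructs asks what catalytic activity adds to overexpression. The log2 fold changes of ACP7 OE against ACP7-7A OE ran from -0.0093 for vit-1 to 0.18 for vit-3, with a median of 0.06 beside -0.0050 over all tested genes. Of the 6 members 0 passed in edgeR, where 8.56% of all tested genes did (4.79% higher and 3.76% lower), and 0 in DESeq2, where 11.5% did. The groups overlapped for each of the 6, whereas 7.08% of all tested genes did not overlap. vit-3 alone was under an unadjusted p of 0.05, as were 22.9% of all tested genes (log2 fold change 0.18, SE 0.07, 95% interval 0.03 to 0.33, edgeR adjusted p = 0.14). Of the 14 intestinal markers 3, spl-1, asp-1 and cpr-6, were higher in ACP7 OE, and of the 15 oocyte and eggshell genes 4 were lower. Without ACP7-7A OE replicates 1 and 2 these counts were 2 and 3, asp-1 (adjusted p = 0.15) and mex-5 (adjusted p = 0.14) no longer passing. In that fit 4.91% of all tested genes were higher and 5% lower. The part of these marker differences in the yolk gene values was not tested. For vit-2 and vit-6 the 95% intervals ran from -0.11 to 0.13 and from -0.09 to 0.14. The constructs also differed in the level of F21A3.11, given above, so activity and RNA dose cannot be told apart in this comparison, which shares its ACP7 OE libraries with the first and its ACP7-7A OE libraries with the second.

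This comparison turned on the ACP7-7A OE libraries that stood apart. Leaving out replicates 1 and 2 alone was chosen after seeing the data. They held the highest vit-3, vit-4 and vit-5 levels of their group, so the choice itself widens the differences of these genes. The p-values of that fit are therefore a description and no independent support. With replicates 1 and 2 left out, vit-3, vit-5 and vit-4 were higher in ACP7 OE by log2 fold changes of 0.32, 0.21 and 0.17 (SE 0.05 each, edgeR adjusted p = 0.00015, 0.0096 and 0.035), where 4.91% of the tested genes passed in the higher direction. vit-1, vit-2 and vit-6 did not pass then, with log2 fold changes of -0.02, 0.09 and 0.07. With ACP7-7A OE replicate 2 alone left out, vit-3 was the only one of the 6 to pass (log2 fold change 0.25, adjusted p = 0.015), where 4.15% passed in the higher direction. Leaving out any other single library gave 0 members past the threshold.

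**Figure D3:**
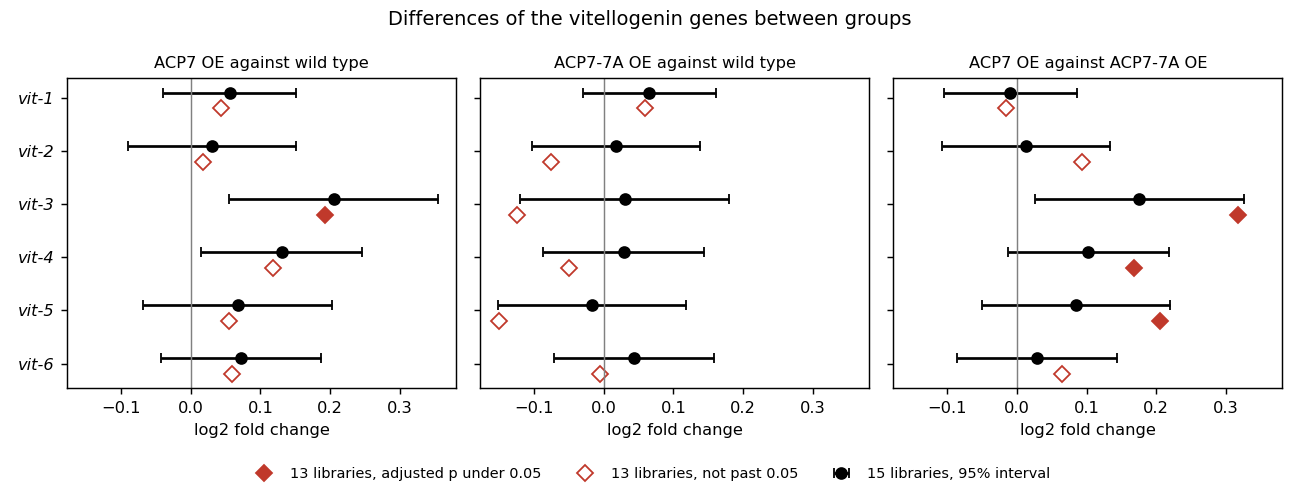
Log2 fold change of each vitellogenin gene in the 3 comparisons. Black points with bars are the estimates and 95% intervals from 15 libraries, none of them past an adjusted p of 0.05, and red diamonds are the estimates from the 13 libraries without ACP7-7A OE replicates 1 and 2, filled where the adjusted p is under 0.05. The diamonds of vit-3 to vit-5 are filled in the comparison of the constructs, and only that of vit-3 in the comparison of ACP7 OE with wild type. The libraries left out were chosen after seeing the data.

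Ratios of counts between yolk genes of the same library do not depend on the scaling of libraries. Of the 15 pairs of members, 7 had ratios that did not overlap between ACP7 OE and wild type, 3 did not overlap between ACP7 OE and ACP7-7A OE, and 0 were separate between ACP7-7A OE and wild type. These counts are a description without a test, and the pairs are not independent. Ratios of other gene pairs were not computed, so the counts have no background share beside them. All 7 pairs involve vit-3 or vit-4. The ratio of vit-3 to vit-1 was 0.867 ± 0.029 in wild type (0.822 to 0.900) and 0.962 ± 0.0084 in ACP7 OE (0.954 to 0.975), and that of vit-3 to vit-2 was 0.236 ± 0.010 (0.222 to 0.248) and 0.266 ± 0.0065 (0.261 to 0.276). The ratio of vit-3 to its neighbour vit-4 was 0.949 ± 0.020 in wild type and 1.00 ± 0.012 in ACP7 OE (SD, n = 5 each). vit-3 thus made up more of the yolk gene counts in every ACP7 OE library, 7.42% to 7.78% against 6.42% to 7.17% in wild type, and vit-2 made up less, 28.2% to 28.6% against 28.7% to 29.7%.

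The split within ACP7-7A OE was also a matter of proportions. The ratio of vit-1 to vit-3 was 1.06 and 1.01 in replicates 1 and 2 and 1.32, 1.32 and 1.29 in replicates 3, 4 and 5, and wild type lay between them at 1.11 to 1.22. The ratio of vit-1 to vit-5 was 0.367 in both replicates 1 and 2 and 0.451, 0.446 and 0.455 in the others, against 0.383 to 0.402 in wild type. The ratio of vit-5 to vit-6 was 0.740 and 0.737 in replicates 1 and 2 and 0.646, 0.648 and 0.643 in replicates 3 to 5. For these 3 ratios, replicates 3 to 5 lay outside the range of every other library of the series. The division of reads among paralogs is uncertain, as given above, and its part in these ratios was not tested.

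**Figure D4:**
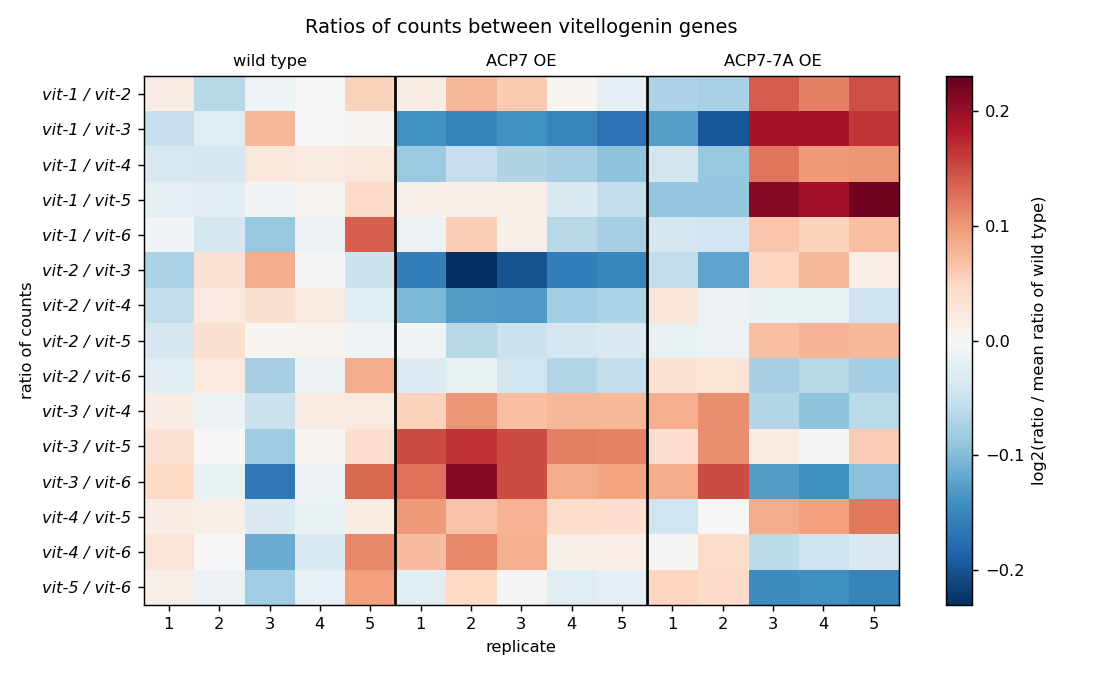
Ratios of raw counts for the 15 pairs of vitellogenin genes (rows) in each library (columns, by group and replicate), as the log2 of the ratio over its mean in wild type, so that red is above and blue below wild type. The ratios of vit-1 and vit-2 to vit-3 are blue in all 5 ACP7 OE libraries, and ACP7-7A OE replicates 3 to 5 have the highest ratios of vit-1 to vit-5.

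Of 16 genes in a list of such regulators, all tested, 1 fell and 15 did not pass in ACP7 OE against N2, and 1 rose and 15 did not pass in ACP7-7A OE against N2 (edgeR quasi-likelihood test over all genes). Between the constructs 2 were higher and 1 lower in ACP7 OE, and 13 did not pass. The shares that passed were thus 6.25%, 6.25% and 18.8%, beside 2.68%, 6.86% and 8.56% of all tested genes. The same genes passed without ACP7-7A OE replicates 1 and 2. In that fit 4.22% of all tested genes were lower in ACP7 OE against N2 and 2.51% higher in ACP7-7A OE against N2. Between the constructs 4.91% were higher and 5% lower in ACP7 OE. With all libraries the median log2 fold changes of the list were 0.04, -0.07 and 0.01 in these comparisons. The direct activators did not pass in any comparison. elt-2, the intestinal GATA factor gene, had 16.2 ± 3.01 CPM in N2, and the strains with active and inactive ACP7 had 18.3 ± 2.21 and 14.4 ± 1.67 CPM. unc-62 had 58.6 ± 5.02, 55.5 ± 1.07 and 56.6 ± 2.95 CPM in the same order. ceh-60 had 8.42 ± 0.715, 7.33 ± 1.40 and 6.14 ± 1.06 CPM (SD, n = 5 each).

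The lowest adjusted p among these activators was that of ceh-60, at -0.46 on the log2 scale for ACP7-7A OE against N2 (SE 0.15, edgeR adjusted p = 0.068), which passed without wild-type replicate 5 (adjusted p = 0.0496) and in DESeq2 (adjusted p = 0.038). In those fits 8.49% and 5.95% of all tested genes were lower, against 4.2% in edgeR with all libraries. ceh-60 had a log2 fold change of -0.33 without ACP7-7A OE replicates 1 and 2 (edgeR adjusted p = 0.25). elt-2 stood 0.35 higher in ACP7 OE than with the inactive form on the log2 scale (SE 0.12, edgeR adjusted p = 0.082). It passed without wild-type replicate 5 or ACP7 OE replicate 1 (adjusted p = 0.047 and 0.033), where 5.83% and 6.1% of all tested genes were higher. The difference was 0.27 without ACP7-7A OE replicates 1 and 2 (adjusted p = 0.24). lin-29, which encodes a zinc finger factor of the passage to adulthood, had log2 fold changes of -0.28, -0.12 and -0.16 in the 3 comparisons. Those of mab-3 were 0.50, -0.36 and 0.86, and none of either gene passed with all libraries. Between the constructs lin-29 passed without wild-type replicate 5 and ACP7-7A OE replicates 1 and 2 (log2 fold change -0.50, edgeR adjusted p = 0.046). In that fit 6.93% of all tested genes were lower.

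alg-1, an Argonaute gene of the microRNA pathway that acts upstream of yolk gene expression, fell in ACP7 OE. It had 87.8, 88.3, 87.7, 90.5 and 79.7 CPM in N2, whereas ACP7 OE had 80.5, 62.1, 68.0, 64.1 and 69.8 CPM. Replicate 1 of ACP7 OE was within the range of wild type and the other 4 were below it. The log2 fold change was -0.33 (SE 0.07, edgeR adjusted p = 0.0089), and against ACP7-7A OE alg-1 was lower too, at -0.31 on the log2 scale (SE 0.07, adjusted p = 0.0073). Both calls held under every alternative run.

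sgk-1, a kinase gene, and rict-1, which encodes the Rictor subunit of the TOR complex that acts through SGK-1, differed in other comparisons. sgk-1 had 26.002 ± 0.785 CPM in N2, 30.4 ± 2.91 CPM with active ACP7 and 22.98 ± 1.94 CPM with the inactive form. Between the constructs it was higher with active ACP7, by a log2 difference of 0.40 (SE 0.08, edgeR adjusted p = 0.0025), with no overlap of the groups. rict-1 rose by 0.23 on the log2 scale in ACP7-7A OE against N2 (SE 0.06, adjusted p = 0.017), and did not pass without wild-type replicate 1 or 3 (adjusted p = 0.053 and 0.065). In ACP7 OE against N2 the log2 fold change of rict-1 was 0.16 (edgeR adjusted p = 0.14). Without wild-type replicate 5 it passed there too, at 0.19 (adjusted p = 0.023), where 1.81% of all tested genes were higher. pqm-1, a zinc finger factor that opposes yolk gene expression, was higher with active than with inactive ACP7, by a log2 difference of 0.35 (SE 0.10, edgeR adjusted p = 0.024). That call was lost without ACP7 OE replicate 4 or ACP7-7A OE replicate 3 or 5 (adjusted p = 0.072, 0.053 and 0.063).

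Of 17 listed genes of yolk assembly and uptake, all tested, 17 did not pass in ACP7 OE against N2, 1 rose and 16 did not pass in ACP7-7A OE against N2, and 2 were lower and 15 did not pass in ACP7 OE against ACP7-7A OE. The shares that passed were 0%, 5.88% and 11.8%, beside 2.68%, 6.86% and 8.56% of all tested genes. Without ACP7-7A OE replicates 1 and 2 the counts were 2 lower (apa-2 and dpy-23, which encode subunits of the same clathrin adaptor), 0, and 1 lower (apa-2). In that fit 4.22% of all tested genes were lower in ACP7 OE against N2 and 5% were lower in ACP7 OE against ACP7-7A OE. With all libraries the median log2 fold changes of the list were -0.02, 0.06 and -0.09. dsc-4, which encodes the microsomal triglyceride transfer protein that loads lipid onto lipoproteins, had 73.1 ± 10.2, 70.4 ± 4.87 and 63.2 ± 12.2 CPM in N2, ACP7 OE and ACP7-7A OE and did not pass in any comparison.

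rme-2, the yolk receptor gene of the oocyte, rose in ACP7-7A OE. It had 892, 873, 768, 844 and 1071 CPM in N2, whereas ACP7-7A OE had 1263, 1296, 1067, 1082 and 1024 CPM. Wild-type replicate 5 was above replicates 3 and 5 of ACP7-7A OE, and no other pair of libraries crossed. The log2 fold change was 0.37 (SE 0.09, edgeR adjusted p = 0.025). The call was lost without wild-type replicate 1, 2, 3 or 4 (adjusted p = 0.057, 0.063, 0.072 and 0.065), without ACP7-7A OE replicate 1 or 2 (0.055 and 0.071), and without both of the latter (log2 fold change 0.25, adjusted p = 0.15). In ACP7 OE rme-2 had 984 ± 118 CPM and a log2 fold change against wild type of 0.15 (SE 0.09, adjusted p = 0.46). rme-2 is itself an oocyte gene, and 9 of the 15 oocyte and eggshell genes, rme-2 among them, rose in ACP7-7A OE against wild type, where 2.66% of all tested genes rose. Without ACP7-7A OE replicates 1 and 2, 3 of the 15 rose, perm-2, perm-4 and cpg-1, where 2.51% of all tested genes did. The part of oocyte number in its level was not tested.

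The clathrin adaptor gene apa-2 and the dynamin gene dyn-1, both of endocytosis, were lower with active than with inactive ACP7 by log2 fold changes of -0.23 (SE 0.07, edgeR adjusted p = 0.031) and -0.24 (SE 0.07, adjusted p = 0.036). The call of apa-2 was lost without ACP7 OE replicate 2, 3 or 5 or ACP7-7A OE replicate 2, 3 or 5, and its adjusted p reached 0.078. The call of dyn-1 was lost without ACP7 OE replicate 2, 3, 4 or 5 or ACP7-7A OE replicate 1 or 2, and without both ACP7-7A OE libraries that stood apart the adjusted p = 0.15.

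**Figure D5:**
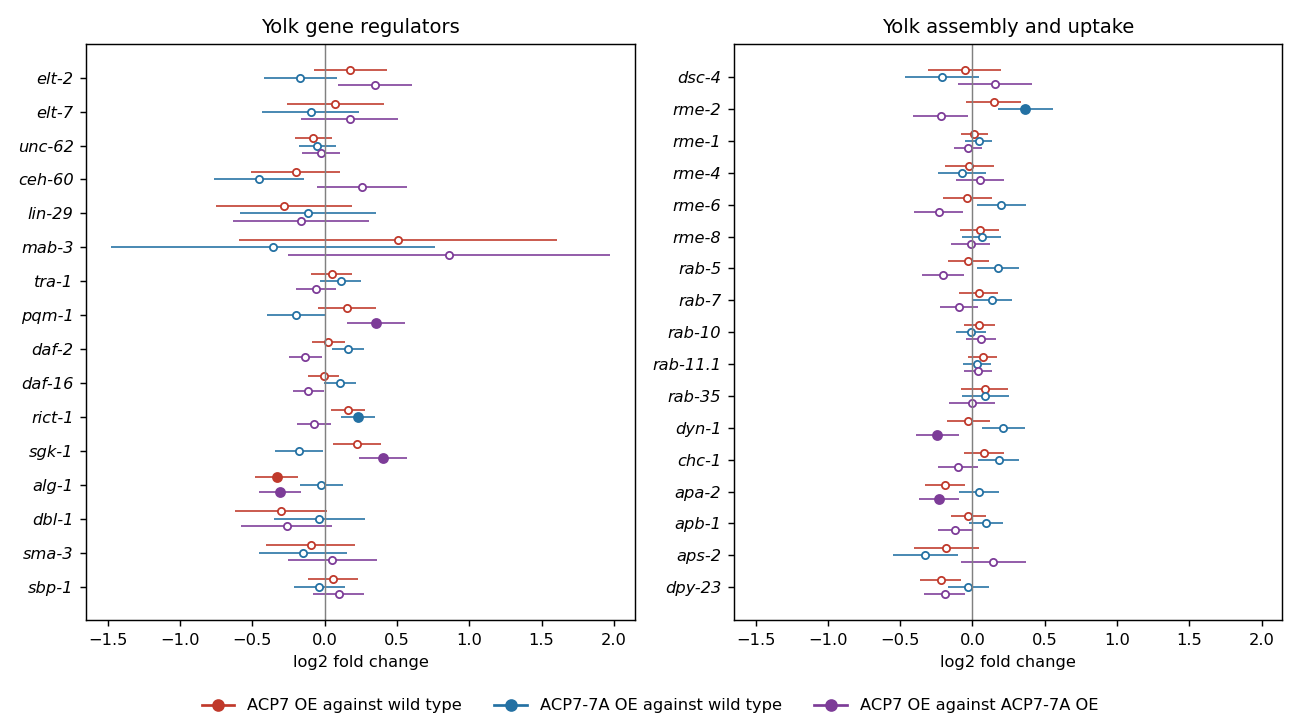
Log2 fold change with 95% interval of 16 regulators of yolk genes (left) and 17 genes of yolk assembly and uptake (right) in ACP7 OE against wild type (red), ACP7-7A OE against wild type (blue) and ACP7 OE against ACP7-7A OE (purple). Filled points passed an adjusted p of 0.05, which in the red comparison is alg-1 alone and in the blue one rict-1 and rme-2.

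The genes most like the yolk genes across libraries were sought among 5048 other tested genes whose average level was 5 or more in log2 CPM. Likeness was Pearson's r, over the 15 libraries, between a gene's log2 CPM and the mean of the standardized log2 CPM of the 6 members. It serves to rank genes and has no test. The 5 highest were C24B9.3 (r = 0.87), elpc-2 (0.83), the fatty acid desaturase gene fat-1 (0.83), lea-1 (0.82) and ggtb-1 (0.82). With the group means taken out, the 5 highest were unc-101 (r = 0.88), C24B9.3 (0.87), the nuclear hormone receptor gene nhr-49 (0.87), tbc-17 (0.87) and alh-4 (0.86). C24B9.3 was in both sets, with 142.3 ± 13.1 CPM in N2, 165 ± 15.4 CPM with active ACP7 and 141 ± 25.03 CPM with the inactive form (SD over 5 libraries).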

How the data were processed

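Per the labels' protocols, RNA was isolated with QIAzol from about 1000 worms per library, and poly(A) RNA was sequenced as read pairs of 150 nucleotides. The authors deposited 1 table of raw counts per gene for 15 libraries, written by featureCounts 2.0.6 according to the header of the table. The submitters' processing notes name the tools Trim Galore and STAR and the build WBcel235. No source used here gives the settings for strand, mates and reads with several alignments. Even numbers made up 81.3% to 86.1% of a library's counts of 5 to 39, so each pair may have counted 2 times, and halved counts were tried. Every value column belonged to a labelled sample. RefSeq locus tags named 46925 of 46929 genes. The sequences of the promoters and proteins were not used here.

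All 15 libraries entered 1 fit in edgeR 4.0.16 (R 4.3.3) with filterByExpr (15725 genes), TMM scaling and the robust quasi-likelihood F test, Benjamini-Hochberg adjusted within a comparison. The SE is that implied by the test. The procedure was tested on simulated data. DESeq2 1.42.0 was an alternative. Levels are TMM-scaled CPM computed here. The members and lists were chosen with earlier results of these data known. Named are the 6 members, each member of the regulator and uptake lists past the threshold, rme-2, ceh-60, unc-62, elt-2, lin-29, mab-3, pqm-1 and dsc-4, and the 5 most alike genes. Other lists were markers of intestine, oocyte, early embryo, sperm, males, adult cuticle and muscle. The 14 early embryo genes summed to between 170 and 232 CPM in every library, the 10 male genes to between 0.867 and 2.28 CPM and the 10 muscle genes to between 4068 and 7134 CPM.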

Additional observations from a re-analysis of the deposited data

How the results depend on the processing

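Each comparison was repeated with other scaling (DESeq2 size factors, TMM without the vit genes), no filter or one of 50 counts in 5 libraries, DESeq2, only the groups compared, halved counts, and libraries left out. Leaving out only ACP7-7A OE replicates 1 and 2 was chosen after seeing the data. The count of 0 vitellogenin genes past the threshold became 1 in ACP7 OE against wild type with only the 2 groups compared, and 1 without ACP7-7A OE replicates 1 and 2, with or without wild-type replicate 5 (vit-3 each time). Of all tested genes 4.42% were higher with only the 2 groups, 4.52% with wild-type replicate 5 kept and 6.28% without it. In ACP7-7A OE against wild type the count became 1 (vit-5) without those 3 libraries, where 6.54% of all tested genes were lower. In ACP7 OE against ACP7-7A OE it became 3 (vit-3, vit-4 and vit-5) without ACP7-7A OE replicates 1 and 2, with or without wild-type replicate 5. There 4.91% of all tested genes were higher with wild-type replicate 5 kept and 6.67% without it. With single libraries left out the counts ranged from 0 to 1, from 0 to 0 and from 0 to 1 in these comparisons. The cause was not tested. Calls over all genes moved from 422 to between 256 and 2434, from 1079 to between 402 and 2248, and from 1346 to between 883 and 2212. The wild-type share of 8.58% became 9.02% over nuclear protein-coding genes, and the mean shares without single libraries stayed within 1 SD. Same-numbered libraries correlated at -0.37 to 0.20 in their deviations from the group means, over 0.1 in 3 of 15 pairs. The labels give no pairing, and low correlations cannot exclude a shared batch, since a few deviating libraries weigh on them. With the replicate block the counts of vitellogenin genes were 0 in each comparison, and 289, 633 and 1035 over all genes.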

Other observations

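The biological coefficient of variation assigned by edgeR to the members ran from 6.62% for vit-1 to 8.93% for vit-3. The median was 18.3% over all tested genes and 7.49% over the 658 genes with an average log2 CPM of 8 or more. Among those abundant genes 17.6% had a lower value than vit-1 and 80.5% a lower value than vit-3.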
